A study of Mus musculus with 6 samples.

Results

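Trp53, the gene that encodes p53, and 9 genes known as direct p53 targets were followed in 6 RNA-seq libraries of 46C cells, a mouse embryonic stem cell line that carries GFP at the Sox1 locus. The 10 genes were chosen by name from 55401 genes in each deposited table: Trp53, Mdm2, Cdkn1a, Ccng1, Bax, Perp, Trp53inp1, Phlda3, Zmat3 and Sesn1. The rule did not use their levels, but earlier results of these data were known when it was set. All 10 were measured, and all 10 had a mean of at least 0.5 TPM (a length-scaled unit of transcript abundance) over the 6 libraries and were tested. By the study's methods, 46C cells first received the biotin ligase BirA from a lentivirus selected with blasticidin. A later lentivirus selected with puromycin brought in a FLAG-Avitag alone, tagged Rbbp4 or tagged Rbbp7. The 2 libraries labelled 46C control were taken as the tag-only cells, which their labels do not state. Whether the controls carried BirA or met either selection is therefore not known. They were compared with 2 libraries overexpressing Rbbp4 (Rbbp4 OE) and 2 overexpressing Rbbp7 (Rbbp7 OE). RBBP4 and RBBP7 are closely related histone-binding proteins found in several chromatin complexes, so the comparison asks what an excess of one or the other does to the transcriptome. No treatment was given, and all cells grew on gelatin in serum with LIF, the GSK3 inhibitor Chir99021 and the MEK inhibitor PD0325901. The isolation of single clones is not described, and endogenous Rbbp4 and Rbbp7 were intact in every group.

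p53 is a transcription factor that is kept low by the ubiquitin ligase MDM2 and that accumulates after DNA damage and other stress. It binds DNA as a tetramer, and its sites are built from a pair of half-sites. Its targets halt the cell cycle, start apoptosis, repair DNA and adjust metabolism, and Mdm2, itself a target, closes a negative feedback loop. p53 protein is regulated largely by its stability, which mRNA levels do not report. Mouse embryonic stem cells are known for abundant Trp53 mRNA.

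Promoter windows from RefSeq (GRCm38.p6), from 250 bases before to 50 bases after an annotated start, were found for 7 of the 10 genes, in 9 windows. They are shown because these genes are grouped as targets of p53, and half-sites are the letters that p53 is known to bind. The p53 half-site motif, 10 bases long and read on both strands with overlaps allowed, was matched in 6 of the 9 windows, 1 each of Trp53, Mdm2, Cdkn1a, Ccng1, Bax and Sesn1, and in 8.36% of the 32851 windows of this length in the whole table. No match lay in the window of Phlda3, in the other window of Cdkn1a or in the other window of Sesn1. Half-sites with at most 13 bases between them were matched in 1 member window, that of Cdkn1a, and in 0.073% of all windows. A site of 20 bases was made of adjoining half-sites with at most 1 base outside the pattern. It was matched in 2 windows, those of Cdkn1a and Ccng1, and in 0.088% of all windows. This 20-base rule was set after the half-site matches had been seen. The stretch around the matched letters is given for each gene, upstream of its start and on its own strand, with the matched bases in capitals (the 20-base site where there was one, and otherwise the half-site).
Trp53, chr11:69580264-69580313, plus strand: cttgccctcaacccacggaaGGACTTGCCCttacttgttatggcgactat
Mdm2, chr10:117710915-117710964, minus strand: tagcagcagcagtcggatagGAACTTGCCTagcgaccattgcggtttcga
Cdkn1a, chr17:29090908-29090967, plus strand: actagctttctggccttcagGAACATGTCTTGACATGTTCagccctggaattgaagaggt
Ccng1, chr11:40755442-40755501, minus strand: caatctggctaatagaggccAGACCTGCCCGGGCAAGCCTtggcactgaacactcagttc
Bax, chr7:45467070-45467119, minus strand: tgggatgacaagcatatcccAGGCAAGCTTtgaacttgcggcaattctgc
Sesn1, chr10:41887246-41887295, plus strand: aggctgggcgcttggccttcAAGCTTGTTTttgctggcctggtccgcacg
The matched letters began at position -75 of the start of Trp53, counted in bases with upstream negative, at -186 for Mdm2, at -51 for the upstream start of Cdkn1a, at -195 for Ccng1, at -201 for Bax and at -173 for one start of Sesn1. The 20-base match of Cdkn1a lay 2841 bases before the other annotated start of that gene. A further half-site match of Cdkn1a, at -73, is cut by the edge of its stretch and left in small letters. A match of letters is a description and not a site shown to be bound.

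The labels and the cell type were checked first. Rbbp4 measured 147 TPM ± 0.69 (SD) in controls and 271 ± 0.87 in Rbbp4 OE, and Rbbp7 measured 238 ± 1.0 in controls and 736 ± 16 in Rbbp7 OE. The embryonic stem cell genes Pou5f1, Nanog, Sox2 and Zfp42 were expressed in all 6 libraries, with Pou5f1 at 1455 to 1816 TPM and Nanog at 420 to 521 TPM. Of 8 stem cell markers, 1 rose, 2 fell and 5 did not pass in Rbbp4 OE. On the log2 scale in Rbbp4 OE, Pou5f1 rose by 0.25 (adjusted p = 0.0334), Nanog fell by 0.23 (adjusted p = 0.0393) and Tfcp2l1 fell by 0.52 (adjusted p = 0.0330). Klf4 (-0.45, adjusted p = 0.0969), Esrrb (-0.27, adjusted p = 0.0785), Dppa5a (0.18, adjusted p = 0.0848), Sox2 (0.12, adjusted p = 0.331) and Zfp42 (0.02, adjusted p = 0.830) did not pass. Of 6 markers each, 3 fibroblast, 0 endoderm, 5 trophoblast and 1 2C-like marker reached a mean of 0.5 TPM. The summed fibroblast markers were 4.48 to 5.59 TPM in controls, 9.09 to 11.7 in Rbbp4 OE and 8.75 to 15.7 in Rbbp7 OE, with Lum at 0 throughout. Most of it was Thy1, at 4.13 and 5.02 TPM in controls, 8.87 and 10.8 TPM with Rbbp4 OE and 7.01 and 7.04 TPM with Rbbp7 OE, and 1 Rbbp7 OE library had Col3a1 at 6.39 TPM, which was at most 0.06 elsewhere. The endoderm sum was 0.83 to 0.87 TPM in controls, 1.26 to 2.49 in Rbbp4 OE and 1.28 to 1.67 in Rbbp7 OE. The trophoblast sum was 46.1 to 49.2 TPM in controls, 59.7 to 63.4 in Rbbp4 OE and 63.2 to 67.4 in Rbbp7 OE. Its members did not move together. Tfap2c, Krt8 and Eomes were higher in all 4 overexpression libraries than in both controls, Cdx2 (4.88 to 5.49 TPM in controls, 2.93 to 3.70 in the other 4) and Gata3 (0.83 to 1.29 against 0.39 to 0.51) were lower, and Elf5 was at most 0.04 TPM. The 2C-like sum was 1.57 to 2.23 TPM in controls, 0.42 to 0.75 in Rbbp4 OE and 0.76 to 0.78 in Rbbp7 OE, with Tcstv1 and Tcstv3 at 0. By limma, Thy1 (0.96, adjusted p = 0.0192) and Tfap2c (0.44, adjusted p = 0.0385) passed in Rbbp4 OE. The other tested fibroblast, trophoblast and 2C-like markers did not, and none of these markers passed in Rbbp7 OE. The part of cells with such markers in the results was not tested. In bulk RNA, fewer cells of a kind and less RNA per cell cannot be told apart.

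TPM is scaled for transcript length, so levels of different genes can be set side by side. The 10 genes spanned from 9.01 TPM (Sesn1 in an Rbbp4 OE library) to 575 TPM (Bax in an Rbbp4 OE library). In controls the order of mean levels was Bax (484 ± 32), Trp53 (407 ± 17), Phlda3 (98.8 ± 4.6), Ccng1 (93.5 ± 8.1), Cdkn1a (89.3 ± 6.7), Mdm2 (61.7 ± 5.8), Trp53inp1 (36.0 ± 4.5), Zmat3 (14.5 ± 0.64), Perp (14.3 ± 1.2) and Sesn1 (12.8 ± 1.0), in TPM ± SD with n = 2 each. The libraries of Phlda3, Ccng1 and Cdkn1a overlapped from one neighbour to the next, as did those of Zmat3, Perp and Sesn1, and the other neighbours did not overlap. Bax and Trp53 stood first and in this order in all 3 groups. In Rbbp4 OE, Cdkn1a and Phlda3 stood next and overlapped, Ccng1 lay below both, and Perp lay above Zmat3 and Sesn1, which overlapped. In Rbbp7 OE, Phlda3 stood above Cdkn1a and Ccng1, which overlapped, and Perp, Zmat3 and Sesn1 followed each other at the bottom without overlap.

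**Figure D1:**
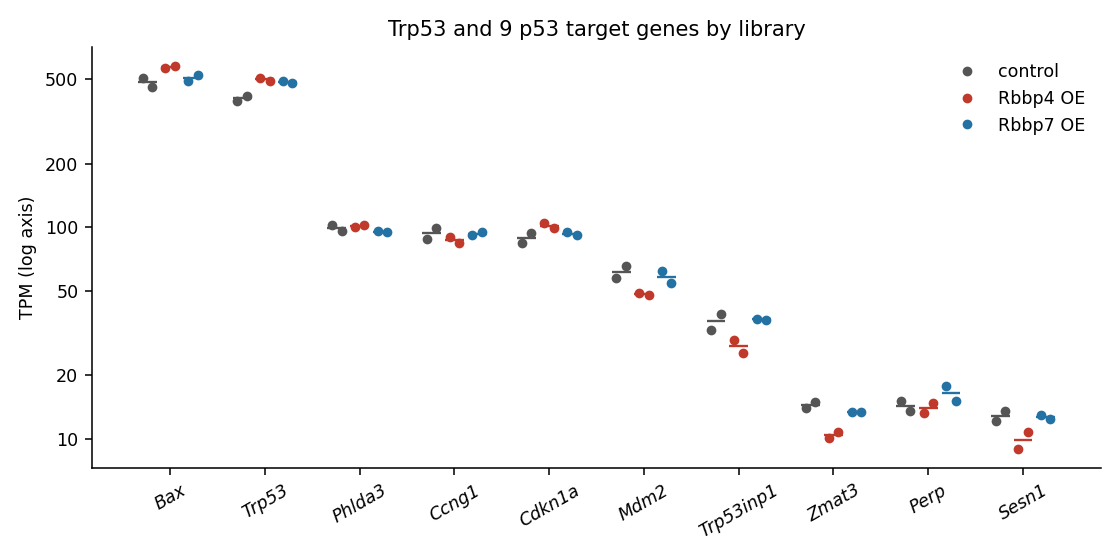
TPM of each gene in each library on a log axis, with control in grey, Rbbp4 OE in red and Rbbp7 OE in blue, and a bar at the mean of the 2 libraries. Bax and Trp53 lie near 500 TPM and Zmat3, Perp and Sesn1 between 9.01 and 17.7 TPM, and the 4 overexpression libraries of Trp53 lie above both controls.

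To examine the effect of Rbbp4 excess, Rbbp4 OE was compared with control by limma on log2(TPM + 1), on which all fold changes here are given, with Benjamini-Hochberg adjustment over the 14156 tested genes. Trp53 rose and Zmat3 fell at an adjusted p under 0.05, and the other 8 genes did not pass. These 2 of 10 stand beside 11.4% of all tested genes, of which 3.29% rose and 8.07% fell. No member reached the study's stricter rule of an adjusted p under 0.01 and a fold above 2, which 0.516% of tested genes met, and 7 members had an unadjusted p under 0.05, as did 29.6% of tested genes. Libraries did not overlap between the groups for 7 genes, 3 higher and 4 lower in Rbbp4 OE, against 57.9% of all tested genes (20.8% higher and 37.1% lower). The median log2 fold change of the 10 genes was -0.06, beside -0.08 for all tested genes.

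In Rbbp7 OE against control, 0 of 10 genes passed by limma, beside 0.487% of all tested genes (0.198% higher and 0.29% lower), and 1 gene, Trp53, had an unadjusted p under 0.05, as did 15.4% of tested genes. No member met the stricter rule, which 0.0353% of tested genes met. Libraries did not overlap for 3 genes, Trp53 higher and Zmat3 and Phlda3 lower, against 44.5% of all tested genes (21.2% higher and 23.4% lower). The median log2 fold change was 0.02 for the 10 genes and -0.0037 for all tested genes. Set directly against Rbbp7 OE, Rbbp4 OE also had 0 of 10 genes past the limma threshold, beside 0.304% of tested genes, and 5 at an unadjusted p under 0.05, beside 2685 of the 14156 tested genes. All 10 genes had libraries that did not overlap in this direct comparison, 4 higher and 6 lower in Rbbp4 OE, where 54.7% of all tested genes did so (16.1% higher and 38.6% lower). The median log2 difference was -0.15 for the 10 genes and -0.08 for all tested genes. No member met the stricter rule in this direct comparison either, which 0.0494% of tested genes met. Both overexpression lines were set against the same 2 control libraries, so their fold changes are not independent of each other.

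**Figure D2:**
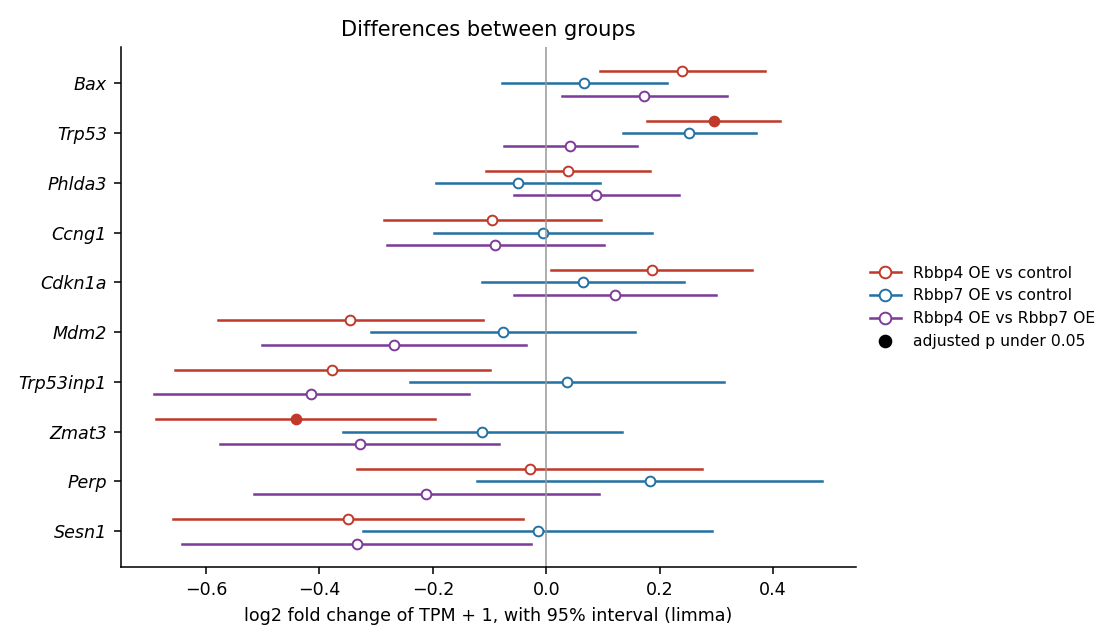
Log2 fold change of TPM + 1 for each gene with its 95% interval from limma, for Rbbp4 OE against control in red, Rbbp7 OE against control in blue and Rbbp4 OE against Rbbp7 OE in purple. Filled points mark an adjusted p under 0.05, reached by Trp53 (0.29) and Zmat3 (-0.44) in Rbbp4 OE against control.

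Trp53 (ENSMUSG00000059552.13, GRCm38 chr11:69580359-69591873, plus strand) measured 395 and 419 TPM in the control libraries, 506 and 493 TPM with Rbbp4 OE and 490.4 and 479 TPM with Rbbp7 OE. All 4 overexpression libraries lay above both controls, where 20.8% of all tested genes did so in Rbbp4 OE and 21.2% in Rbbp7 OE. The Trp53 values of Rbbp4 OE and Rbbp7 OE differed from each other by little. The mean was 22.7% higher in Rbbp4 OE, which is 0.29 on the log2 scale (SE 0.048, 95% interval 0.18 to 0.41, adjusted p = 0.0201). In Rbbp7 OE it was 19.1% higher, or 0.25 on the log2 scale (SE 0.048, 95% interval 0.14 to 0.37, adjusted p = 0.107), with an unadjusted p of 0.00181. The direct difference was 0.04 (95% interval -0.07 to 0.16, adjusted p = 0.666), so the call in one line and not the other does not show that the lines differ. The call in Rbbp4 OE depended on which libraries entered the fit, and was lost with only the 2 groups compared. It was lost without Rbbp4 OE replicate 1 (0.28, adjusted p = 0.139) or 2 (0.31, adjusted p = 0.145), and without Rbbp7 OE replicate 1 (0.29, adjusted p = 0.0717) or 2 (0.29, adjusted p = 0.0715), whose libraries enter only through the shared spread. It was kept without either control library, and over all 17 alternatives the fold change ran from 0.25 to 0.40 with an adjusted p from 0.0115 to 0.145. The fibroblast sum (mostly Thy1), the trophoblast sum (Tfap2c, Krt8 and Eomes) and the low endoderm sum were also higher in all 4 overexpression libraries than in both controls. So was the sum of the stem cell markers, at 7621 to 7875 TPM in controls and 8258 to 8573 TPM in the overexpression libraries. The trophoblast markers Cdx2 and Gata3 and the 2C-like sum were lower. The processed pseudogene Trp53-ps, 97.7% identical over 353 bases, was listed at 0.09 to 0.27 TPM.

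Mdm2 (ENSMUSG00000020184.15, chr10:117688875-117710758, minus strand), the feedback inhibitor of p53, measured 57.6 and 65.8 TPM in controls, 48.7 and 47.8 TPM with Rbbp4 OE and 62.0 and 54.8 TPM with Rbbp7 OE. Both Rbbp4 OE libraries lay below all 4 others, and the Rbbp7 OE libraries overlapped the controls. Its log2 fold change was -0.35 in Rbbp4 OE (SE 0.096, 95% interval -0.58 to -0.11, adjusted p = 0.0701), which did not pass. It was -0.08 in Rbbp7 OE (95% interval -0.31 to 0.16, adjusted p = 0.765), and the direct difference was -0.27 (95% interval -0.50 to -0.04, adjusted p = 0.221). Among the genes with a mean of at least 5 TPM alone, a smaller family of tests, Mdm2 passed in Rbbp4 OE (adjusted p = 0.0437).

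The 2 members that act on the cell cycle and growth did not pass in any comparison. Cdkn1a (ENSMUSG00000023067.14, chr17:29090976-29100727, plus strand) encodes p21, an inhibitor of cyclin-dependent kinases. It measured 84.6 and 94.0 TPM in controls, 104 and 98.9 TPM with Rbbp4 OE and 94.8 and 91.85 TPM with Rbbp7 OE. Both Rbbp4 OE libraries were above all others, and Rbbp7 OE overlapped the controls. The log2 difference from control was 0.19 in Rbbp4 OE (95% interval 0.0079 to 0.36, adjusted p = 0.155), 0.06 in Rbbp7 OE (95% interval -0.11 to 0.24, adjusted p = 0.734) and 0.12 between the lines (95% interval -0.06 to 0.30, adjusted p = 0.409). Scaled by the median of ratios, which moves the median of all genes to 0.01, the Rbbp4 OE value was 0.29 and passed (adjusted p = 0.0366). The unclassified transcript AC167363.2 covers 1046 bases of the gene on the opposite strand and was listed at 0.11 to 1.38 TPM. Whether the reads were counted by strand is not given in the sources used here, and without strand the reads of this pair could not be told apart. Ccng1 (ENSMUSG00000020326.7, chr11:40748552-40755311, minus strand), which encodes cyclin G1, measured 87.8 and 99.3 TPM in controls, 90.04 and 84.7 TPM with Rbbp4 OE and 91.45 and 94.6 TPM with Rbbp7 OE. Its libraries overlapped between control and either line. The log2 fold change was -0.10 in Rbbp4 OE (95% interval -0.29 to 0.10, adjusted p = 0.468) and -0.0057 in Rbbp7 OE (95% interval -0.20 to 0.19, adjusted p = 0.989), and the sign of both turned with the scaling, to 0.01 and 0.0028 by median of ratios.

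None of the 4 members tied to apoptosis passed. Bax (ENSMUSG00000003873.11, chr7:45461697-45466898, minus strand) encodes a protein that permeabilises the outer mitochondrial membrane. It measured 507 and 461 TPM in controls, 568 and 575 TPM with Rbbp4 OE and 492 and 522 TPM with Rbbp7 OE. Both Rbbp4 OE libraries were the highest of the 6. Its log2 fold change was 0.24 in Rbbp4 OE (95% interval 0.09 to 0.39, adjusted p = 0.0547), close to the threshold, and 0.07 in Rbbp7 OE (95% interval -0.08 to 0.21, adjusted p = 0.646). The Rbbp4 OE value passed in 4 of 17 alternatives, namely without control replicate 1 (0.31, adjusted p = 0.0396), with a mean of at least 5 TPM (adjusted p = 0.0346), with robust variance (adjusted p = 0.0495) and with a pseudocount of 0.1 (adjusted p = 0.0499), and the direct difference between the lines was 0.17 (95% interval 0.03 to 0.32, adjusted p = 0.215). The annotated gene Gm45808 shares 915 bases with Bax on the same strand and was listed at 0 to 1.94 TPM. Trp53inp1 (ENSMUSG00000028211.11, chr4:11156431-11174379, plus strand), whose product promotes p53-dependent death and autophagy, measured 32.8 and 39.1 TPM in controls, 29.3 and 25.5 TPM with Rbbp4 OE and 37.0 and 36.5 TPM with Rbbp7 OE. The Rbbp4 OE libraries were the lowest, and Rbbp7 OE lay within the control range. The log2 difference from control was -0.38 in Rbbp4 OE (95% interval -0.66 to -0.10, adjusted p = 0.0836), 0.04 in Rbbp7 OE (95% interval -0.24 to 0.31, adjusted p = 0.922) and -0.41 between the lines (95% interval -0.69 to -0.14, adjusted p = 0.158).

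Perp (ENSMUSG00000019851.8, chr10:18845020-18857073, plus strand), a tetraspan membrane protein gene also needed in desmosomes, measured 15.2 and 13.5 TPM in controls, 13.3 and 14.8 TPM with Rbbp4 OE and 17.7 and 15.1 TPM with Rbbp7 OE. Each line overlapped the controls. The log2 fold change was -0.03 in Rbbp4 OE (95% interval -0.33 to 0.28, adjusted p = 0.904) and 0.18 in Rbbp7 OE (95% interval -0.12 to 0.49, adjusted p = 0.540), and the former turned to 0.07 by median of ratios. Phlda3 (ENSMUSG00000041801.5, chr1:135766119-135769136, plus strand), which encodes a repressor of Akt signalling, measured 102 and 95.6 TPM in controls, 101 and 102 TPM with Rbbp4 OE and 95.5 and 95.2 TPM with Rbbp7 OE. All 6 libraries lay close together, with those of Rbbp7 OE just below the controls. Its log2 fold change was 0.04 in Rbbp4 OE (95% interval -0.11 to 0.18, adjusted p = 0.714) and -0.05 in Rbbp7 OE (95% interval -0.20 to 0.09, adjusted p = 0.746).

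Zmat3 (ENSMUSG00000027663.12, chr3:32334792-32366014, minus strand), which encodes a zinc finger protein that binds RNA, measured 14.1 and 15.0 TPM in controls, 10.1 and 10.8 TPM with Rbbp4 OE and 13.35 TPM with both Rbbp7 OE libraries. The Rbbp4 OE libraries were the lowest, and the Rbbp7 OE libraries lay just below the controls. The mean changed by -28.2% in Rbbp4 OE, or -0.44 on the log2 scale (SE 0.10, 95% interval -0.69 to -0.20, adjusted p = 0.0452). In Rbbp7 OE it was -0.11 (95% interval -0.36 to 0.13, adjusted p = 0.648), and the direct difference between the lines was -0.33 (95% interval -0.57 to -0.08, adjusted p = 0.184). The call was lost in 14 of 17 alternatives, among them the removal of any one of the 6 libraries (log2 fold change -0.48 to -0.40, adjusted p 0.0587 to 0.193). Sesn1 (ENSMUSG00000038332.13, chr10:41809935-41908424, plus strand) encodes a sestrin, which restrains mTORC1 under stress. It measured 12.1 and 13.6 TPM in controls, 9.01 and 10.8 TPM with Rbbp4 OE and 12.99 and 12.4 TPM with Rbbp7 OE, lowest in both Rbbp4 OE libraries. The log2 difference from control was -0.35 in Rbbp4 OE (95% interval -0.66 to -0.04, adjusted p = 0.129), -0.02 in Rbbp7 OE (95% interval -0.32 to 0.29, adjusted p = 0.978) and -0.33 between the lines (95% interval -0.64 to -0.03, adjusted p = 0.235). The transcript 9930024M15Rik within Sesn1 was listed at 0 to 0.03 TPM.

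Fold changes in Rbbp4 OE moved with transcript length across the whole transcriptome. The median over tested genes was 0.10 for those whose longest transcript was at most 1000 nucleotides long, 0.0013 from 1001 to 2000, -0.08 from 2001 to 4000, -0.16 from 4001 to 6000 and -0.21 above 6000. In Rbbp7 OE the same 5 classes had medians between -0.01 and 0.02. Among the members, Zmat3 (7797 nucleotides) and Trp53inp1 (5432) had the longest transcripts and the lowest values in Rbbp4 OE, and Bax (1100) and Phlda3 (1435) had the shortest. A correction for GC content and length, chosen after the data had been seen, left Trp53 (3275 nucleotides) at 0.27 (adjusted p = 0.0310). It brought Zmat3 to -0.26 (adjusted p = 0.149), Bax to 0.01 (adjusted p = 0.897), Mdm2 to -0.26 (adjusted p = 0.121), Trp53inp1 to -0.19 (adjusted p = 0.188) and Sesn1 to -0.26 (adjusted p = 0.206). Phlda3 turned to -0.15 (adjusted p = 0.150), Cdkn1a was at 0.11 (adjusted p = 0.471), and Ccng1 and Perp were each at 0.02. Trp53 was then the only member past the threshold in Rbbp4 OE.

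**Figure D3:**
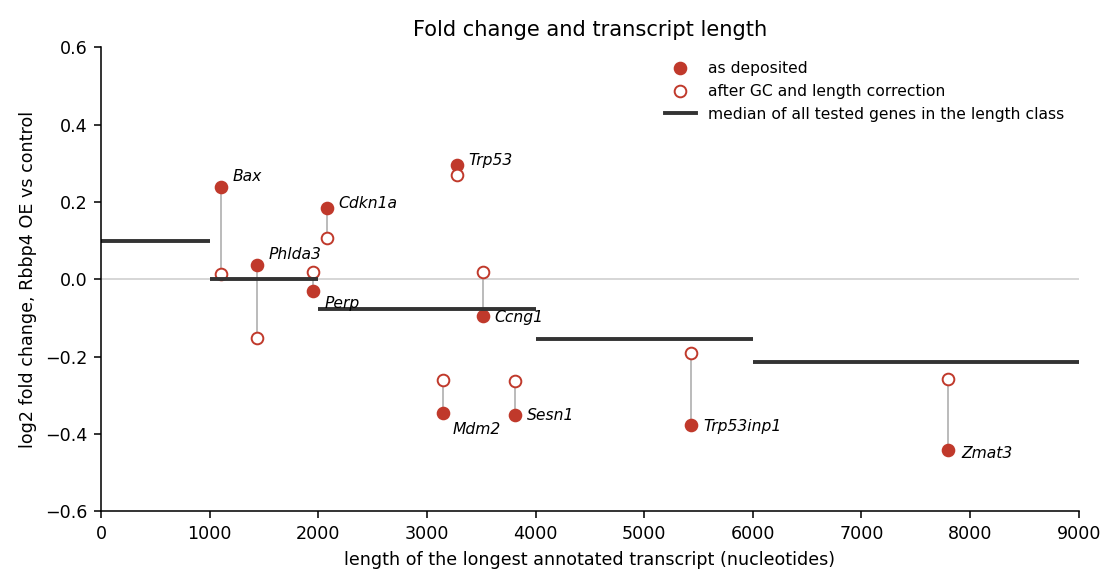
Log2 fold change of Rbbp4 OE against control for each of the 10 genes against the length of its longest annotated transcript in nucleotides, as deposited (filled) and after the GC and length correction (open), with black bars at the median of all tested genes in each length class. The medians descend from 0.10 to -0.21, and Trp53 moves little (0.29 to 0.27) while Bax and Zmat3 move towards 0.

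The genes whose profiles over the 6 libraries were most like 3 of the members were found among 9034 genes with a mean of at least 5 TPM, by the root mean square difference of log2(TPM + 1) values centred on each gene's mean. For Trp53, whose own root mean square deviation was 0.133, they were Noc4l (0.0156), Trp53i11 (0.0217) and mt-Nd2 (0.0218). Noc4l ran from 103 and 111 TPM in controls to 129 to 133 TPM in the 4 overexpression libraries. For Cdkn1a (own deviation 0.0921) they included Sub1 (0.0241) and Plekhg1 (0.0272), and for Mdm2 (own deviation 0.166) they were Cr1l (0.0250), Sephs1 (0.0275) and Sbf2 (0.0289). With 6 libraries, a close match among so many genes describes these libraries only.

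The wider pathway was read from a list of 47 other genes, namely regulators of p53, its relatives Trp63 and Trp73, and further targets. Of these, 44 were tested, and Trp63, Trp53cor1 and Fas were below the filter. In Rbbp4 OE against control 3 rose, 3 fell and 38 did not pass, against 11.4% of all tested genes, with a median log2 fold change of -0.01. At an unadjusted p under 0.05 there were 12 of 44, beside 29.6% of tested genes. The 15 regulators, among them the kinases and deacetylases that modify p53, had 0 higher and 2 lower, beside 3.29% and 8.07% of tested genes. Their median was -0.22, beside -0.08 for all tested genes. Their longest transcripts ran from 895 nucleotides (Cdkn2a) to 9819 (Atm). Over that range the medians of all tested genes by length class ran from 0.10 to -0.21. The part of length in the medians by role was not tested. The 6 tested arrest targets had 1 higher and the 8 tested death targets 1 higher. The 9 metabolic and stress targets had 1 higher and 1 lower. None of the 5 repair and nucleotide targets passed (median -0.28), nor did Trp73 (0.41). In Rbbp7 OE 1 of 44 rose and 0 fell, beside 0.198% of tested genes higher and 0.29% lower, with a median of 0.08 and 7 genes at an unadjusted p under 0.05, beside 15.4% of tested genes. Between the lines 0 of 44 passed by limma, beside 0.304%, with 9 at an unadjusted p under 0.05, beside 2685 of the 14156 tested.

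Gadd45a, which encodes a growth arrest and DNA repair protein, was the pathway gene that passed in both lines. It measured 26.4 and 29.4 TPM in controls, 41.1 and 43.7 TPM with Rbbp4 OE and 46.6 and 50.4 TPM with Rbbp7 OE. The 3 groups did not overlap, and both lines were above control, as were 20.8% of all tested genes in Rbbp4 OE and 21.2% in Rbbp7 OE. The log2 fold change was 0.59 in Rbbp4 OE (adjusted p = 0.0171) and 0.78 in Rbbp7 OE (adjusted p = 0.0370), with a direct difference of -0.19 (adjusted p = 0.311). After the GC and length correction the values were 0.58 (adjusted p = 0.0257) and 0.79 (adjusted p = 0.0469). In Rbbp7 OE the call was lost on removal of any one library (0.70 to 0.85, adjusted p 0.125 to 0.222), and in Rbbp4 OE on removal of any but control replicate 1 (0.51 to 0.66, adjusted p 0.0420 to 0.149).

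Bbc3, which encodes the BH3-only death protein PUMA, measured 35.4 and 33.5 TPM in controls, 58.2 and 48.0 TPM with Rbbp4 OE and 49.4 and 48.2 TPM with Rbbp7 OE. It was higher in all 4 overexpression libraries, by 0.60 in Rbbp4 OE (adjusted p = 0.0227) and by 0.49 in Rbbp7 OE (adjusted p = 0.129), which did not pass. Libraries above both controls were found for 20.8% of all tested genes in Rbbp4 OE and 21.2% in Rbbp7 OE. Ddit4, a stress-induced inhibitor of mTORC1, measured 20.2 and 22.1 TPM in controls, 32.0 and 34.5 TPM with Rbbp4 OE and 21.55 and 23.8 TPM with Rbbp7 OE. It was raised by 0.63 in Rbbp4 OE (adjusted p = 0.0182) and stood at 0.09 in Rbbp7 OE (adjusted p = 0.702), though the direct difference of 0.53 did not pass (adjusted p = 0.103). Both calls held after the GC and length correction, Bbc3 at 0.43 (adjusted p = 0.0334) and Ddit4 at 0.48 (adjusted p = 0.0454). On removal of single libraries, Bbc3 was lost in each case and Ddit4 in all but the removal of control replicate 1, with log2 fold changes of 0.47 to 0.74 for Bbc3 (adjusted p 0.0583 to 0.115) and 0.57 to 0.69 for Ddit4 (adjusted p 0.0473 to 0.153).

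The 3 genes that fell in Rbbp4 OE were Chek1, Sirt1 and Tigar. Chek1, the checkpoint kinase gene, measured 32.7 and 31.55 TPM in controls, 20.3 and 22.5 TPM with Rbbp4 OE and 29.6 and 26.6 TPM with Rbbp7 OE, a log2 difference from control of -0.56 in Rbbp4 OE (adjusted p = 0.0218) and -0.19 in Rbbp7 OE (adjusted p = 0.418). Sirt1, which encodes a deacetylase that acts on p53, measured 22.1 and 29.2 TPM in controls, 15.85 and 17.0 TPM with Rbbp4 OE and 24.2 and 25.4 TPM with Rbbp7 OE, log2 differences of -0.60 (adjusted p = 0.0479) and -0.03 (adjusted p = 0.951). Tigar, a regulator of glycolysis, measured 80.0 and 78.4 TPM in controls, 57.8 and 54.2 TPM with Rbbp4 OE and 60.4 and 67.9 TPM with Rbbp7 OE, log2 differences of -0.49 (adjusted p = 0.0199) and -0.30 (adjusted p = 0.184). The Rbbp4 OE libraries were the lowest for each of the 3 genes, and they lay below both controls for 37.1% of all tested genes. After the GC and length correction Tigar still passed (-0.41, adjusted p = 0.0357), whereas Chek1 (-0.43, adjusted p = 0.0521) and Sirt1 (-0.44, adjusted p = 0.0742) did not. On removal of single libraries, Chek1 and Tigar lost the call in each case and Sirt1 in all but the removal of control replicate 1, with log2 fold changes of -0.63 to -0.50 for Chek1 (adjusted p 0.0593 to 0.139), -0.79 to -0.40 for Sirt1 (adjusted p 0.0276 to 0.228), -0.54 to -0.45 for Tigar (adjusted p 0.0534 to 0.155).

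**Figure D4:**
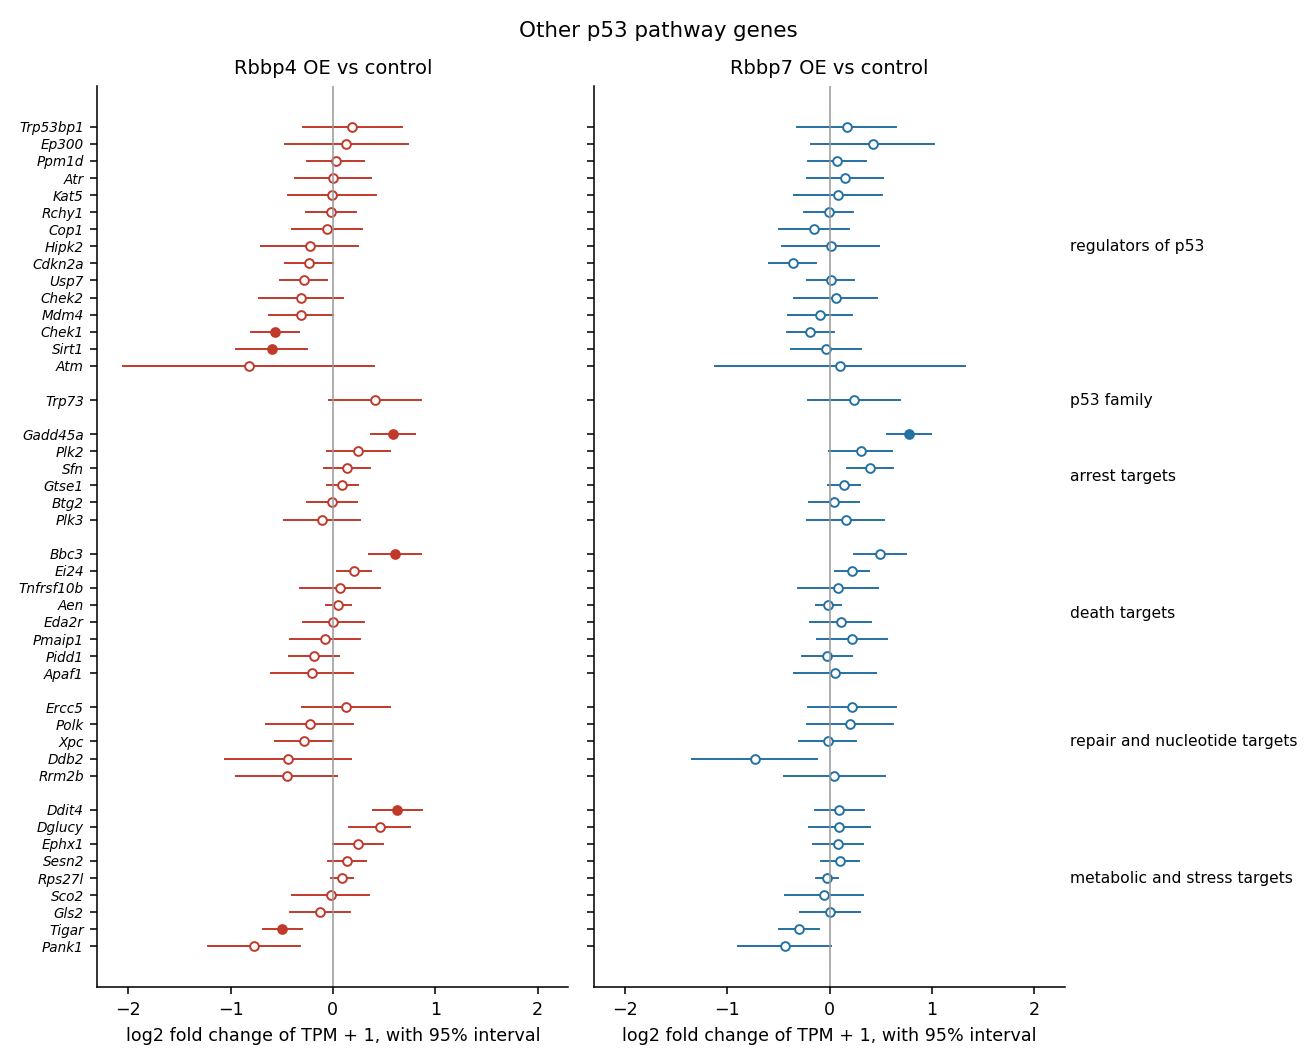
Log2 fold change of TPM + 1 with its 95% interval for the 44 tested pathway genes, grouped by role, in Rbbp4 OE against control (left, red) and Rbbp7 OE against control (right, blue), with filled points at an adjusted p under 0.05. Gadd45a is filled in both panels, and Bbc3, Ddit4, Chek1, Sirt1 and Tigar are filled in the left panel alone.

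Of 30 listed pathway targets, 23 had a promoter window, 30 windows in all. The p53 half-site motif was matched in 7 of these windows, of 6 genes, beside 8.36% of all windows. The 20-base site was matched in 2, those of Rps27l and Gtse1, beside 0.088% of all windows. That of Rps27l, which lies wholly upstream of the start, is shown for comparison with the members' sequences above, on the same build.
Rps27l, chr9:66946276-66946335, plus strand: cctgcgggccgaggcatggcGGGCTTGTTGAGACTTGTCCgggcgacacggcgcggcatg
The matched letters began at position -117 for Rps27l and -1 for Gtse1. Neither gene passed in any comparison. In Rbbp4 OE the log2 fold change was 0.09 (adjusted p = 0.236) for Rps27l and 0.09 (adjusted p = 0.374) for Gtse1.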

How the data were processed

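Poly(A) RNA from 6 libraries of 46C cells was sequenced by the authors, who trimmed reads with Trim_galore 0.6.7, aligned them to mm10 with STAR 2.7.0d and estimated expression with RSEM 1.3.3 on GENCODE M25. The authors deposited 1 table of TPM values per library, which are scaled for transcript length and to a fixed total. Depth is therefore unknown, and no counting interval is given. The tables listed 19011 to 19691 genes above 0. Gene coordinates, overlaps and transcript lengths came from GENCODE M21 on GRCm38, in which 55141 of the 55401 genes were found and 260 were not, and near-identical transcripts were sought with blastn 2.17.0.

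The study tested counts with DESeq2, which does not apply to TPM, so limma 3.58.1 (R 4.3.3, lmFit and eBayes with trend) was run on log2(TPM + 1), on which the change of low genes is understated. A mean of at least 0.5 TPM over all libraries was required, which left 14156 genes. The 3 groups entered 1 fit (3 residual and 3.1 prior degrees of freedom), with Benjamini-Hochberg adjustment over all tested genes and a threshold of 0.05. Intervals are 95% and unadjusted. The scripts were tested on simulated data. No label says that the 2 libraries of a group were separate cultures, so p-values measure only the spread between these libraries, which may be technical.

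The members and lists were chosen with earlier results of these data known. The genes named were the members, Rbbp4 and Rbbp7, every gene of the pathway list that passed in any comparison, 4 stem cell markers, genes or copies that share sequence with a member, and the 3 genes most like each of Trp53, Cdkn1a and Mdm2, of which 1 is not reported here. Rps27l, Gtse1, the other marker genes with values and the genes of the closing section were named after their values were seen. Alternatives were other pseudocounts, filters and scalings, robust variance, a replicate block, 2-group fits and the removal of each library. The correction by splines of GC content and transcript length, for the 14142 tested genes with a length, was added after seeing the data. Promoter windows were matched by symbol.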

Additional observations from a re-analysis of the deposited data

Results flagged for a closer look

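Pmaip1, which encodes the BH3-only death protein NOXA, measured 3.97 and 3.92 TPM in controls, 3.69 and 3.70 TPM with Rbbp4 OE and 4.96 and 4.53 TPM with Rbbp7 OE. Both Rbbp4 OE libraries lay below and both Rbbp7 OE libraries above the controls, which drew attention to the gene. Of all tested genes, 37.1% lay below both controls in Rbbp4 OE and 21.2% above them in Rbbp7 OE. The direct log2 difference between the lines was -0.29 (95% interval -0.63 to 0.05, limma adjusted p = 0.320) and did not pass. Neither line passed against control (-0.07, adjusted p = 0.764, and 0.22, adjusted p = 0.516).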

How the results depend on the processing

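Of the 10 members, 2 passed in Rbbp4 OE against control. That number was 1 with a pseudocount of 5, with no filter, with quantile normalization, and with the GC and length correction with or without centring, 3 with a pseudocount of 0.1 or robust variance, 2 by median of ratios, 4 with a mean of at least 5 TPM, 0 with only the 2 groups compared and 0 by the stricter rule. Leaving out 1 library gave 0 to 2. The share of all tested genes that passed moved too, from 11.4% to 22.6% with a mean of at least 5 TPM, 2.87% with no filter, 1.12% with 2 groups, 6.36% with the replicate block, 0.332% to 11.1% with 1 library left out and 8.78% to 12.3% in the others. In the pathway list 6 passed in Rbbp4 OE, and 0 did with the 2 groups alone or by the stricter rule, and 0 to 5 with 1 library left out. The 1 pathway gene that passed in Rbbp7 OE, Gadd45a, gave 0 with no filter, with the 2 groups alone, by the stricter rule and with any library left out (0 to 0). The counts of 0 members with Rbbp7 OE and in the direct comparison stayed 0 in every alternative run. Same-numbered libraries of different groups did not deviate together over all tested genes (correlations -0.026, 0.034 and -0.031). With 2 libraries a group, this cannot show whether same-numbered libraries were processed together, which the labels do not say. A replicate block gave 1 member in Rbbp4 OE and 0 pathway genes in Rbbp7 OE.

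Fold changes near 0 changed sign. By median-of-ratios scaling, Ccng1 became 0.011 (Rbbp4 OE), 0.0028 (Rbbp7 OE) and 0.0086 (direct difference), and Perp became 0.071 in Rbbp4 OE. By quantile normalization, Ccng1 became 0.0053 in Rbbp7 OE and Perp 0.087 in Rbbp4 OE. With the GC and length correction, without and then with centring, Ccng1 became 0.019 and 0.077 with Rbbp4 OE and 0.055 and 0.043 with Rbbp7 OE, Perp 0.019 and 0.078 in Rbbp4 OE, Phlda3 -0.15 and -0.094 in Rbbp4 OE, Bax -0.047 and -0.059 in Rbbp7 OE, and Sesn1 0.014 and 0.0024 in Rbbp7 OE. With centring Ccng1 was also 0.034 between the lines. With 1 library left out, the values in Rbbp7 OE ran from -0.17 to 0.017 for Mdm2, from -0.011 to 0.14 for Cdkn1a, from -0.093 to 0.082 for Ccng1, from -0.0009025 to 0.14 for Bax, from -0.087 to 0.16 for Trp53inp1 and from -0.089 to 0.058 for Sesn1, and those in Rbbp4 OE ran from -0.11 to 0.049 for Perp and from -0.0091 to 0.085 for Phlda3. None of these differences passed as reported, and the cause was not tested. Depth is unknown, so no smallest detectable level can be given.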

Other observations

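Atm, which encodes the kinase that signals DNA breaks to p53, varied widely between the libraries of a group. It was listed at 4.86 and 15.6 TPM in controls, 4.61 and 4.54 TPM with Rbbp4 OE and 13.02 and 6.98 TPM with Rbbp7 OE, and its log2 fold change of -0.82 in Rbbp4 OE did not pass (adjusted p = 0.33). Pank1, a coenzyme A synthesis gene and p53 target, measured 6.98 and 7.08 TPM in controls, 3.80 and 3.63 TPM with Rbbp4 OE and 5.96 and 4.04 TPM with Rbbp7 OE. All 4 overexpression libraries were below both controls, and neither line passed (-0.77, adjusted p = 0.0506, and -0.44, adjusted p = 0.335). Of all tested genes, 37.1% lay below both controls in Rbbp4 OE and 23.4% in Rbbp7 OE. The longest transcript of Pank1 has 7414 nucleotides, and tested genes above 6000 had a median of -0.21 in Rbbp4 OE and -0.01 in Rbbp7 OE. The part of length in the Pank1 values was not tested. Ei24, an endoplasmic reticulum protein gene induced by p53, measured 66.8 and 66.4 TPM in controls, 77.9 and 75.8 TPM with Rbbp4 OE and 81.3 and 74.1 TPM with Rbbp7 OE. It was above the controls in all 4, and did not pass in either line (0.20, adjusted p = 0.11 and 0.22, adjusted p = 0.228). Of all tested genes, 20.8% lay above both controls in Rbbp4 OE and 21.2% in Rbbp7 OE.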
